A study of Mus musculus with 6 samples.

Results

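Matrix metalloproteinases (MMPs) and their tissue inhibitors (TIMPs) were examined in adipocyte RNA of mice with and without an adipocyte deletion of the transcription factor PU.1. The genes are Mmp2, Mmp3, Mmp9, Mmp11, Mmp14, Mmp19, Timp1, Timp2, Timp3 and Timp4, which were picked by symbol and matched to the Ensembl identifiers of the count table. All 10 were found among its 35122 genes. The RNA was from adipocytes that floated after collagenase digestion of the epididymal fat pads of male C57BL/6 mice on a chow diet, with 1 library per mouse. Both groups carried homozygous floxed alleles of Spi1, the gene of PU.1 (PU.1 fl/fl). The 3 control mice carried no Cre, and the 3 aPU.1KO mice also carried Cre under the adiponectin promoter, which is active in adipocytes. The mice were aged 10 to 11 months by the sample labels, and older by the study's text. Nothing says that animals were pooled, and p-values measure the spread between these mice.

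MMPs are zinc-dependent proteinases that cut collagens and other proteins of the extracellular matrix, and most are secreted as inactive proenzymes. TIMPs are small secreted proteins whose N-terminal end enters the catalytic cleft and blocks it, and TIMP2 also links the membrane-bound MMP14 to proMMP2, which MMP14 then activates. In fat, the matrix around each adipocyte is remodelled as the cell enlarges, and stromal cells, macrophages and adipocytes all contribute enzymes and inhibitors.

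All 6 proteinases hold the catalytic zinc site, and its coding sequence is shown for each, read from the longest coding transcript of the GENCODE M21 annotation (GRCm38). Capitals mark the codons of the histidines that hold the zinc, of the catalytic glutamate and of a conserved glycine. All 6 stretches are coding sequence within a single exon.
Mmp2, chr8:92839279-92839311, plus strand, exon 8 of 13: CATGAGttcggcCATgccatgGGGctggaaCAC
Mmp3, chr9:7449775-7449807, plus strand, exon 5 of 10: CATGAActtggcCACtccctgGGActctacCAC
Mmp9, chr2:164951133-164951165, plus strand, exon 8 of 13: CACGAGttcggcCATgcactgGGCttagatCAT
Mmp11, chr10:75926931-75926963, minus strand, exon 5 of 9: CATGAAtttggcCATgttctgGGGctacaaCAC
Mmp14, chr14:54437627-54437659, plus strand, exon 5 of 10: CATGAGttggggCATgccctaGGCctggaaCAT
Mmp19, chr10:128795673-128795705, plus strand, exon 5 of 9: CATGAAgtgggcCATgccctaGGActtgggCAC
Over these 33 bases Mmp2 and Mmp14 were the most alike pair, with 27 identical bases, and Mmp3 and Mmp9 the least alike, with 20.

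The other side of the interaction is the first stretch of each mature TIMP. Capitals mark the codons of the cysteines that contact the enzyme, the first of which is the N-terminal residue once the signal peptide is removed.
Timp1, chrX:20871111-20871140, plus strand, exon 2 of 6: TGTagcTGTgccccaccccacccacagaca
Timp2, chr11:118354983-118355012, minus strand, exon 1 of 5: TGCagcTGCtccccggtgcacccgcaacag
Timp3, chr10:86300923-86300952, plus strand, exon 1 of 5: TGCacaTGCtctcccagccatccccaggat
Timp4, chr6:115251662-115251691, minus strand, exon 1 of 5: TGCagcTGTgcgcctgcgcacccccagcag
Timp2 and Timp4 shared 23 of these 30 bases and Timp1 and Timp3 shared 16.

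The libraries held between 20550252 and 24310144 counts, except that of control mouse 1 with 69283842. Levels are counts relative to library size (CPM), with sizes scaled by the trimmed mean of M-values (TMM). Negative log2 fold changes mean lower levels in aPU.1KO than in control mice. Spi1 itself was counted at 24.3, 6.35 and 26.7 CPM in control mice 1, 2 and 3 and at 3.20, 1.22 and 4.17 CPM in aPU.1KO mice 1, 2 and 3, summed over the floxed exon and all others. The groups did not overlap, and control mouse 2 was the control nearest to the aPU.1KO mice (two-sided exact permutation p = 0.1, the smallest that 3 mice against 3 can give). Control mouse 2 was also the lowest control for Mmp2, Mmp3, Mmp11, Mmp14, Mmp19, Timp1 and Timp2 and the highest for Mmp9, Timp3 and Timp4. Results that rest on that mouse are given with and without it, but it was singled out by these same values, so a wider separation without it follows from that choice. Of 15 macrophage marker genes, 13 had no overlap and were lower in aPU.1KO mice, and none was at 0. Their summed level ran from 526 CPM in control mouse 2 to 1889 CPM among the controls and from 232 to 358 CPM in the aPU.1KO mice. Of 12 stromal progenitor markers, 7 were lower and 1 (Gsn) was higher in every aPU.1KO mouse. Their sum without Gsn, which holds most of it (a choice made after the values were seen), was 531 to 1046 CPM in controls and 290 to 458 CPM in aPU.1KO mice. The adipocyte markers summed to between 42780 and 46620 CPM in controls and between 52510 and 61170 CPM in aPU.1KO mice. Of these 10 markers, 9 were higher and 1 was lower in every aPU.1KO mouse. All 8 hepatocyte markers were lower in every aPU.1KO mouse, with a sum at 41.6% of the control mean, as were 4 of 8 mural markers (71.5%), 3 of 10 lymphocyte markers (49.3%), 1 of 8 neutrophil markers (50.6%), 1 of 10 endothelial markers (70.7%) and 1 of 9 mesothelial markers (64.2%). Of all genes tested, 15.5% were lower and 16.7% higher in every aPU.1KO mouse, against which these marker counts are to be read. The part of these cells in the results was not tested.

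Of the 10 genes, 9 passed the filter on low counts, and Mmp3 did not. Mmp2, Mmp14, Timp1 and Timp2 were below all controls in all 3 aPU.1KO mice, with means between 33.9% and 35.2% of the control mean. The share of all 13925 genes tested that were below all controls in the same way was 15.5%. None of the 10 was above all controls in all aPU.1KO mice, as were 16.7% of all genes. No gene of the set passed an adjusted p of 0.05 with edgeR's quasi-likelihood test, which called 0.237% of all genes in either direction. At an unadjusted p under 0.05 it gave 5 genes of the set as lower (Mmp2, Mmp14, Mmp19, Timp1 and Timp2) and none as higher, against 13.7% and 11.9% of all genes. DESeq2 called 5 at an adjusted p under 0.05, all lower (Mmp2, Mmp3, Mmp14, Timp1 and Timp2), where it called 7.48% of genes as lower and 3.51% as higher. Without control mouse 2, edgeR gave 4 as lower at an adjusted p under 0.05 (Mmp2, Mmp3, Mmp14 and Timp2), against 6.93% of the 14306 genes then tested. The filter on low counts was run anew without that mouse. Mmp3 passed it only through control mice 1 and 3, where it is high, so its call follows in part from that choice. With any one of the other 5 mice left out, no gene of the set passed, but Mmp3 was not tested without control mouse 1 or 3. At an unadjusted p under 0.05 edgeR without control mouse 2 gave 7 as lower and 1, Timp4, as higher, against 15.1% and 11.0% of all genes. With that mouse left out, the groups were apart for 8 genes, 7 of them lower and 1 higher in aPU.1KO mice, against 24.1% and 24.8% of all genes tested. The median log2 fold change of the 9 genes was -0.65, and that of all genes tested was 0.01.

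**Figure D1:**
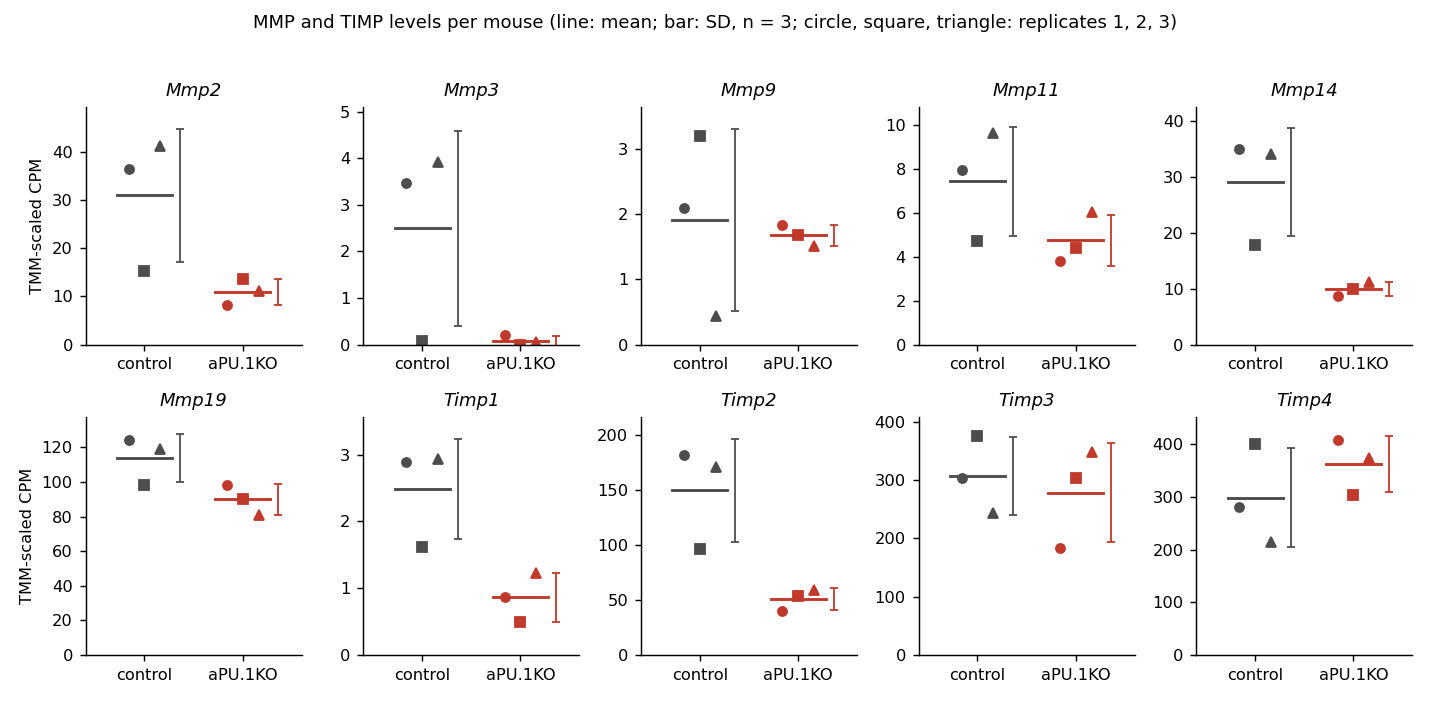
Each panel plots one gene in TMM-scaled CPM on a linear axis from 0, with a point per mouse (circle, square and triangle for replicates 1, 2 and 3), a line at the group mean and a bar of 1 SD (n = 3). The groups are apart for Mmp2, Mmp14, Timp1 and Timp2, and the square of control mouse 2 is the lowest control point in 7 of the 10 panels.

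Mmp14 (ENSMUSG00000000957; chromosome 14, 54431612 to 54445364, plus strand, GRCm38) encodes MT1-MMP, a collagenase anchored in the cell membrane. It was counted at 35.1, 17.9 and 34.2 CPM in control mice 1, 2 and 3 and at 8.69, 9.90 and 11.2 CPM in the aPU.1KO mice. The aPU.1KO mice lay close together and below all controls. The log2 fold change was -1.55 (SE 0.27), with an adjusted p of 0.0722 from edgeR's quasi-likelihood test and of 5.26e-06 from DESeq2. Without control mouse 2 it was -1.81 (SE 0.13, edgeR adjusted p = 0.00278), and with any other mouse left out the adjusted p was between 0.0784 and 0.313.

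Mmp2 (ENSMUSG00000031740; chromosome 8, 92827291 to 92853420, plus strand) encodes gelatinase A, the enzyme that MT1-MMP activates. Its levels were 36.5, 15.3 and 41.2 CPM in the control mice and 8.18, 13.5 and 11.1 CPM in the aPU.1KO mice. Control mouse 2 lay only just above the highest aPU.1KO mouse, and the 2 other controls were far above it. The log2 fold change of Mmp2 was -1.51 (SE 0.38, edgeR adjusted p = 0.0873, DESeq2 adjusted p = 0.00119). It moved to -1.84 (SE 0.20, edgeR adjusted p = 0.00728) when control mouse 2 was left out. Leaving out any other mouse gave adjusted p-values between 0.125 and 0.338 with edgeR.

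Timp2 (ENSMUSG00000017466; chromosome 11, 118301069 to 118355740, minus strand) encodes the inhibitor that bridges MT1-MMP and proMMP2 at the cell surface. It had 182, 96.1 and 171 CPM in control mice and 40.2, 53.2 and 59.1 CPM in aPU.1KO mice. The lowest control was well above the highest aPU.1KO mouse. The log2 fold change was -1.56 (SE 0.26), with adjusted p-values of 0.0722 by edgeR and 1.32e-06 by DESeq2, and without control mouse 2 it was -1.81 (SE 0.16, edgeR adjusted p = 0.00433). With another mouse left out, edgeR's adjusted p for Timp2 lay between 0.0781 and 0.313. Leaving out any single mouse kept the log2 fold changes of Mmp14, Mmp2 and Timp2 between -1.84 and -1.26. The mean level of macrophage markers as a covariate moved them to -0.43, -0.14 and -0.57, and that of stromal progenitor markers turned all 3 to 0.095, 0.95 and 0.13. The marker levels differ between the groups, so a covariate also takes up part of the group difference, and no gene of the set had an unadjusted p under 0.05 in either fit.

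Timp1 (ENSMUSG00000001131; chromosome X, 20870166 to 20874735, plus strand) encodes a broad inhibitor induced by cytokines. It was counted at 2.89, 1.62 and 2.94 CPM in controls and 0.864, 0.497 and 1.23 CPM in aPU.1KO mice, from 11 to 26 counts in each aPU.1KO library. All aPU.1KO mice were below all controls, with wide relative spread among them. The log2 fold change was -1.53 (SE 0.41, edgeR adjusted p = 0.0934, DESeq2 adjusted p = 0.0135), and without control mouse 2 it was -1.76 (SE 0.39, edgeR adjusted p = 0.0504). The range with any other mouse left out was 0.0887 to 0.380, and the log2 fold change was -0.24 with the macrophage and -0.16 with the stromal progenitor covariate. Timp1 lies inside Syn1, on the other strand and with no shared exon bases.

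Mmp3 (ENSMUSG00000043613; chromosome 9, 7445822 to 7455975, plus strand) encodes stromelysin-1, which cuts proteoglycans and activates other proMMPs. It had 252, 2 and 99 counts in control mice 1, 2 and 3 and 4, 0 and 1 counts in the aPU.1KO mice. In CPM these are 3.47, 0.0875 and 3.93 against 0.203, 0 and 0.0474. Control mice 1 and 3 were far above every aPU.1KO mouse, and control mouse 2 was among the aPU.1KO mice, so the groups overlapped. The 95% Poisson interval of control mouse 2 was 0.0106 to 0.316 CPM, which covers counting error only and lies below the other controls. DESeq2, which fitted the gene without that filter, gave -4.94 (SE 1.29, adjusted p = 0.00337). edgeR gave -5.47 (SE 0.69, adjusted p = 0.0102) without control mouse 2, where Mmp3 passed the filter only through control mice 1 and 3. With no filter and all mice its edgeR adjusted p was 0.0914. It was 0.201, 0.182 and 0.172 without aPU.1KO mouse 1, 2 or 3, and the log2 fold change ran from -6.56 to -4.33 over these fits.

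Mmp19 (ENSMUSG00000025355; chromosome 10, 128790910 to 128800824, plus strand), which encodes a secreted proteinase acting on basement membrane proteins, had the highest level per kb of exon of the 6 proteinases. Levels of 124, 98.4 and 119 CPM in controls and 98.6, 90.0 and 81.1 CPM in aPU.1KO mice just met, control mouse 2 and aPU.1KO mouse 1 being nearly equal. The log2 fold change was -0.34 (SE 0.12, edgeR adjusted p = 0.134, DESeq2 adjusted p = 0.0799), and -0.45 (SE 0.10, edgeR adjusted p = 0.0570) without control mouse 2. With the macrophage covariate it turned to 0.0039. Exons of Mmp19 share 789 bp with Tmem198b on the other strand, and no source used here says whether counting used the strand. Tmem198b had 7.61 ± 0.894 CPM (SD, n = 3) in control and 8.11 ± 1.13 CPM in aPU.1KO mice.

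Mmp11 (ENSMUSG00000000901; chromosome 10, 75923222 to 75936496, minus strand) encodes stromelysin-3, which is activated inside the cell before secretion. It had 7.93, 4.73 and 9.60 CPM in controls and 3.81, 4.39 and 6.02 CPM in aPU.1KO mice. Control mouse 2 lay within the range of the aPU.1KO mice. The edgeR log2 fold change was -0.65 (SE 0.30, adjusted p = 0.231, DESeq2 adjusted p = 0.193), and -0.89 (SE 0.24, adjusted p = 0.0785) without control mouse 2, and turned to 0.41 and 1.04 with the macrophage and stromal progenitor covariates. Exons of Mmp11 share 155 bp with Chchd10 on the other strand, which had 16.3 ± 4.21 CPM (SD, n = 3) in control and 24.6 ± 8.59 CPM in aPU.1KO mice.

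Mmp9 (ENSMUSG00000017737; chromosome 2, 164940780 to 164955850, plus strand) encodes gelatinase B, which neutrophils and macrophages make in quantity. Its levels were 2.09, 3.20 and 0.436 CPM in controls and 1.83, 1.67 and 1.52 CPM in aPU.1KO mice. The aPU.1KO mice were nearly equal and lay inside the wide range of the controls. edgeR gave a log2 fold change of -0.19 (SE 0.61, edgeR adjusted p = 0.866), and its sign turned without control mouse 2 (0.32, SE 0.60). With the macrophage and stromal progenitor covariates the Mmp9 value was -1.26 (SE 1.04) and -2.01 (SE 1.39).

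For the remaining inhibitors the groups overlapped. Timp4 (ENSMUSG00000030317; chromosome 6, 115241892 to 115252205, minus strand), an inhibitor known for its high level in fat and heart, had 282, 401 and 214 CPM in controls and 409, 304 and 375 CPM in aPU.1KO mice. Control mouse 2 was the highest control and lay among the aPU.1KO mice. Its log2 fold change was 0.28 (SE 0.23, edgeR adjusted p = 0.489), and 0.54 (SE 0.18, edgeR adjusted p = 0.127) without control mouse 2, and it turned to -0.25 and -0.84 with the macrophage and stromal progenitor covariates. Timp3 (ENSMUSG00000020044; chromosome 10, 86300372 to 86349506, plus strand), which binds to the matrix and also inhibits ADAM proteinases, had 303, 376 and 243 CPM in controls and 184, 303 and 349 CPM in aPU.1KO mice. The range of the controls lay within that of the aPU.1KO mice but for control mouse 2. Its log2 fold change of -0.14 (SE 0.26, edgeR adjusted p = 0.759) turned sign without control mouse 2 (0.017, SE 0.27) or aPU.1KO mouse 1 (0.075, SE 0.20). The Timp3 value was -0.65 (SE 0.48) with the macrophage and -0.13 (SE 0.70) with the stromal progenitor covariate. Timp3 shares 1733 bp of exon with Syn3 and Timp4 shares 90 bp with Syn2, both on the other strand and both with far fewer counts.

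**Figure D2:**
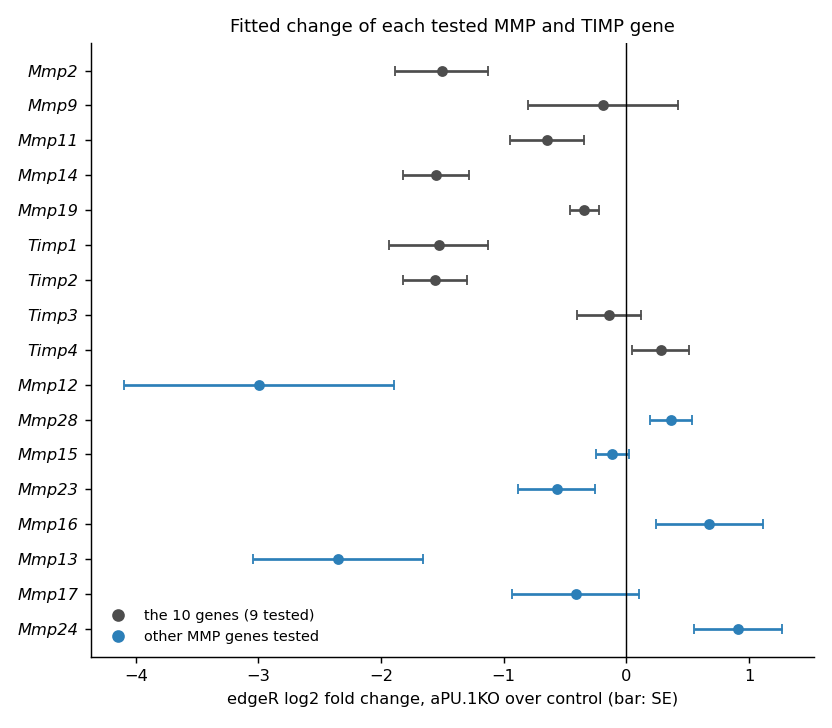
Fitted edgeR log2 fold change, aPU.1KO over control, of each tested gene of the set (grey) and of the other MMP genes tested (blue), with a bar of 1 SE on each side. Mmp2, Mmp14, Timp1 and Timp2 lie together between -1.56 and -1.51, while Mmp9, Timp3 and Timp4 lie between -0.19 and 0.28.

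The ratio of one gene to another within a library does not depend on its depth. Mmp14 to Timp2 was 0.193, 0.186 and 0.201 in the control mice and 0.217, 0.186 and 0.189 in the aPU.1KO mice. The groups overlapped, although both genes were lower in every aPU.1KO mouse, and control mouse 2 was within the range of the others. Mmp2 to Timp2 was 0.200, 0.160 and 0.241 in control and 0.204, 0.254 and 0.188 in aPU.1KO mice, and the groups again overlapped. In contrast, Timp2 to Timp3 was 0.602, 0.256 and 0.702 in control and 0.219, 0.176 and 0.169 in aPU.1KO mice, lower in every aPU.1KO mouse. Mmp11 to Timp2 was higher in every aPU.1KO mouse, with a mean of 0.0931 ± 0.00981 (SD, n = 3) against 0.0497 ± 0.00636 in control mice. No test was run on these ratios, which were chosen with the values known.

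By the pattern over all 6 libraries, the gene most like Mmp14 among all genes tested was Pdgfra, the receptor that marks stromal progenitor cells of fat (Pearson's r of log2 CPM 0.9995, a description over 6 libraries that form 2 groups, in which 1148 genes exceeded an r of 0.9). Tnfrsf11a (0.9993) and Ryr1 (0.9986) came next and were nearly as close. Pdgfra was counted at 38.7, 19.2 and 36.1 CPM in controls and 9.25, 10.5 and 12.4 CPM in aPU.1KO mice. Mmp14 to Pdgfra was 0.907, 0.934 and 0.948 in control and 0.940, 0.944 and 0.904 in aPU.1KO mice. The groups overlapped within this narrow range, which follows in part from choosing Pdgfra for its likeness to Mmp14. Timp2 to Pdgfra was between 4.71 and 5.01 in control and between 4.34 and 5.07 in aPU.1KO mice, and for Mmp2 and Timp1 the groups also overlapped. Mmp11 to Pdgfra was 0.205 to 0.266 in control and 0.412 to 0.487 in aPU.1KO mice. Mmp19, Timp3 and Timp4 to Pdgfra were likewise higher in every aPU.1KO mouse, 2.22, 2.25 and 3.03 times the control mean. Relative to Csf1r, a receptor that marks macrophages, the groups also overlapped for Mmp2, Mmp14, Timp1, Timp2 and Timp3, and Mmp14 was 0.250 to 0.334 in control and 0.298 to 0.423 in aPU.1KO mice. Mmp11, Mmp19 and Timp4 to Csf1r were higher in every aPU.1KO mouse, 2.24, 2.62 and 3.39 times the control mean. Fewer cells of a type and less RNA per cell cannot be told apart in these bulk libraries, and the part of stromal cells and macrophages in the differences of the genes was not tested. The genes most like Timp2 were Gpsm3, Fgd2 and Wipf1, and those most like Timp4 were Atf2, Pds5a and Rsu1.

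**Figure D3:**
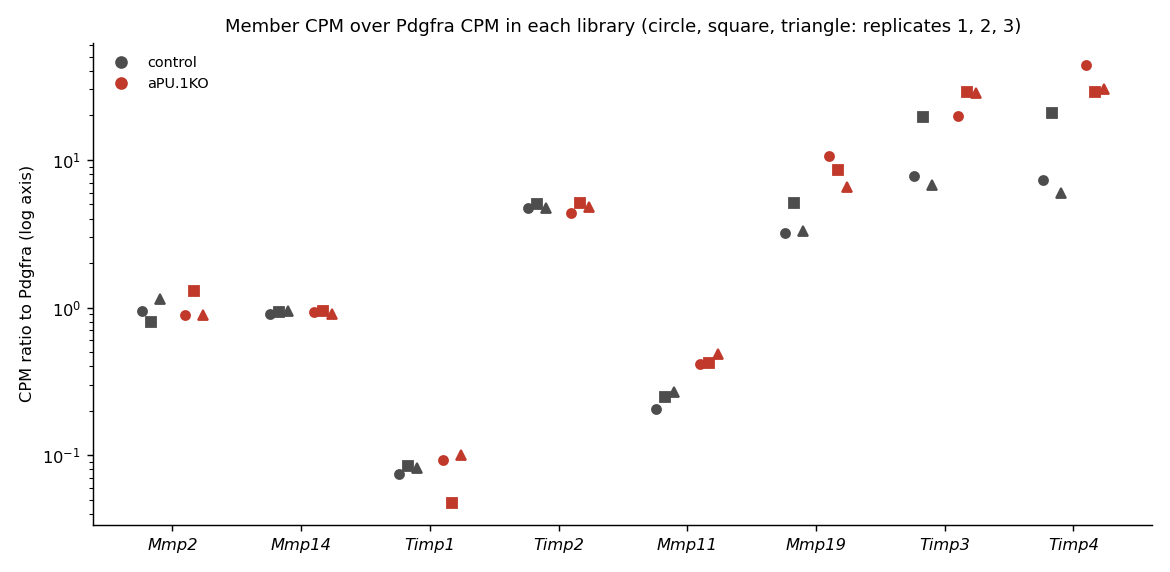
CPM of 8 genes divided by the CPM of Pdgfra in the same library, on a log axis, with a point per mouse (grey control, red aPU.1KO; circle, square and triangle for replicates 1, 2 and 3). The 6 values of Mmp14 lie between 0.904 and 0.948, while those of Mmp11, Mmp19, Timp3 and Timp4 are higher in every aPU.1KO mouse.

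Levels were compared between genes as CPM per kb of exon, over the union of each gene's exons. In control mice the order was Timp4 (50.7 ± 16.1, SD, n = 3), Timp2 (38.4 ± 12.0), Timp3 (37.7 ± 8.15) and Mmp19 (32.3 ± 3.87), and neighbours among these 4 overlapped between mice. A gap without overlap separated them from Mmp2 at 9.20 ± 4.09, followed by Mmp14, Timp1, Mmp11, Mmp3 and Mmp9, where every neighbour overlapped the next. In aPU.1KO mice the order opened with Timp4 (61.5 ± 9.07), Timp3 (34.2 ± 10.4) and Mmp19 (25.5 ± 2.46), and Timp2 was the fourth at 13.0 ± 2.48, with no overlap with Mmp19. The order depends on the length used. Per kb of the longest transcript, control mice had Timp3 at 65.1, Timp4 at 54.4 and Timp2 at 40.4, so that Timp2 was the third, and aPU.1KO mice had Timp4 at 66.0, Timp3 at 59.0, Mmp19 at 26.4 and Timp2 at 13.7.

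**Figure D4:**
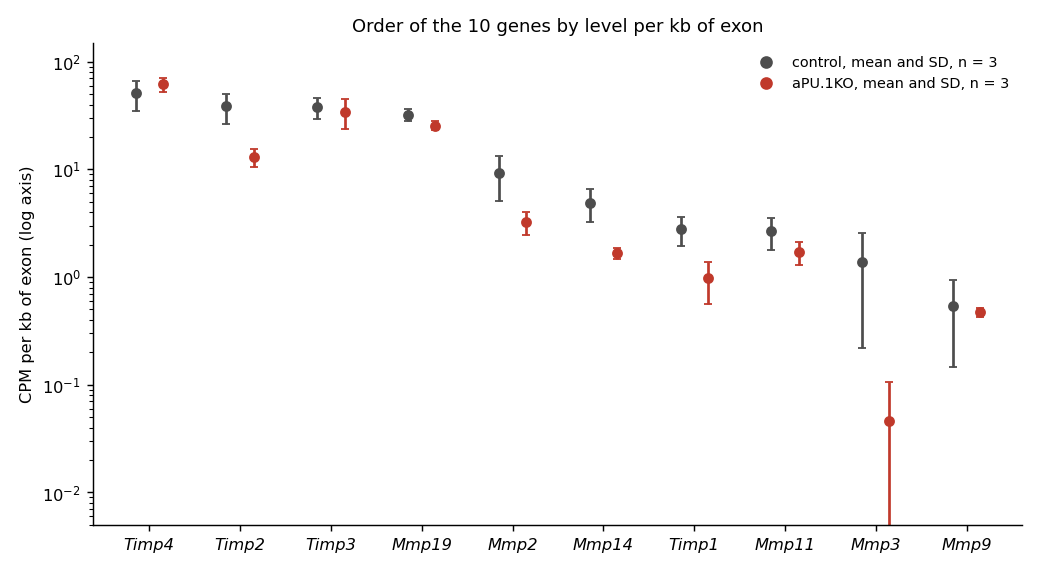
Level of each gene in CPM per kb of exon on a log axis, as the mean with a bar of 1 SD (n = 3), in control (grey) and aPU.1KO (red) mice, ordered by the control mean. By the union of exons Timp4 is at the top in both groups, and Timp2 is the second in control and the fourth in aPU.1KO mice. The lower bar of Mmp3 in aPU.1KO mice runs off the axis because its SD exceeds its mean.

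Summed per kb, the 4 TIMPs came to between 113 and 141 in control and between 103 and 123 in aPU.1KO mice, and the groups overlapped. Timp2 held 34.6%, 17.5% and 38.7% of the TIMP sum in control mice and 9.99%, 13.2% and 12.3% in aPU.1KO mice, lower in each of the latter. Timp4 held between 32.0% and 48.4% in control and between 50.1% and 67.2% in aPU.1KO mice. Per kb of the longest transcript, chosen after the values were seen, Timp2 held 14.4% to 32.9% against 8.65% to 10.7%, and Timp4 27.8% to 40.5% against 41.2% to 59.5%, so that neither had an overlap. The sum of the 6 MMPs was 57.2, 38.0 and 57.5 in controls and 33.8, 33.2 and 30.8 in the aPU.1KO mice, lower in each of the latter, with control mouse 2 nearest to them. Of this sum Mmp19 held between 58.7% and 73.2% in control and between 74.7% and 82.6% in aPU.1KO mice, although its own mean level was lower in aPU.1KO mice. That share depends on which MMPs are summed. With Mmp12 added, a choice made after the values were seen, Mmp19 held 35.8%, 65.0% and 35.1% in control and 70.1%, 76.1% and 65.5% in aPU.1KO mice. Mmp12 then held 41.7%, 11.1% and 40.3% in control and 15.15%, 0.913% and 12.3% in aPU.1KO mice, with control mouse 2 inside the aPU.1KO range. These shares cover mRNA and not protein or enzyme activity.

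**Figure D5:**
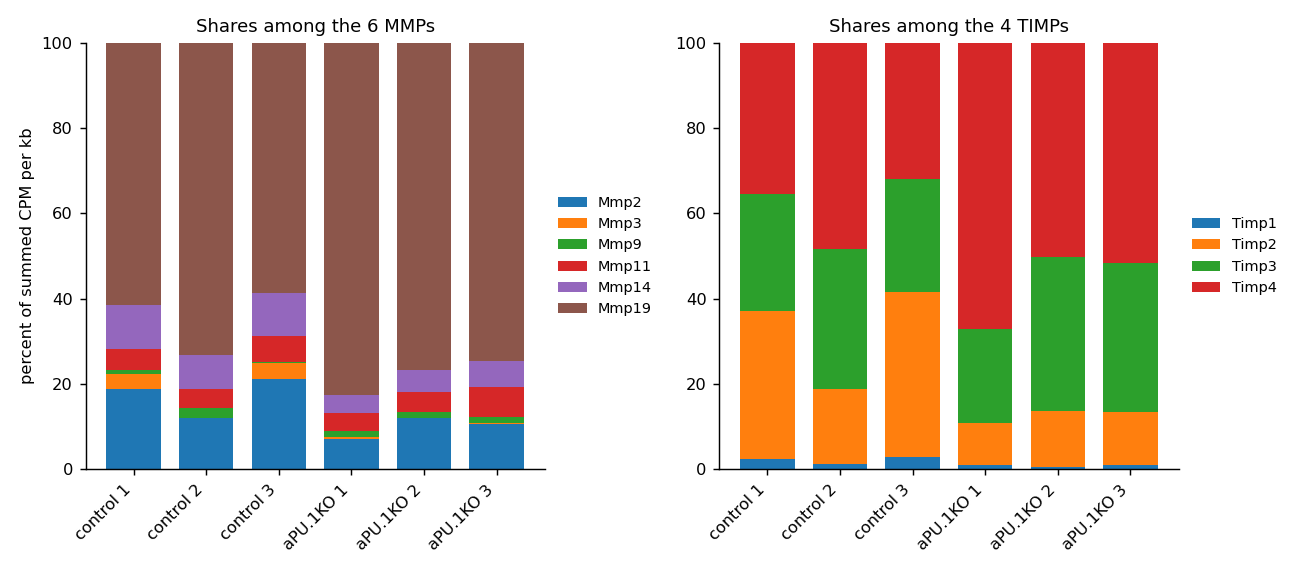
Share of each gene, in percent, in the summed CPM per kb of the 6 MMPs (left) and of the 4 TIMPs (right), with a bar per library. Mmp19 is the largest part of every left bar, and the Timp2 part of the right bars is 17.5% to 38.7% in control and 9.99% to 13.2% in aPU.1KO mice.

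PU.1 is an ETS factor whose preferred site holds GAGGAAGT around the ETS core GGAA, and MMP promoters are known for sites of AP-1, the Fos and Jun dimer (TGANTCA). RefSeq promoter sequences (GRCm38.p6) were matched for 7 of the 10 genes, and Mmp2, Mmp9 and Mmp19 had no entry. Letters were searched on both strands in the 250 bases before each start site. None of the 7 held GAGGAAGT, which 2.44% of 32851 promoters hold, and none held the shorter GAGGAA, which 23.2% hold. The core GGAA, which lies within both, occurred in 6 of the 7 (7 times in Mmp3, 4 in Mmp14, 6 in Timp1, 2 in Timp2 and 3 each in Timp3 and Timp4) and in 93.5% of all promoters. TGANTCA occurred in Mmp3 alone and in 6.75% of all promoters. These counts are descriptions of these windows and not sites of binding. Of the 7 genes, Mmp3, Mmp11, Mmp14, Timp1 and Timp2 were lower in aPU.1KO mice 1 to 3 than in control mice 1 and 3. Timp2 and Mmp11, whose window held neither GGAA nor TGANTCA, are not shown. The windows of the other 3 follow, with the AP-1 letters of Mmp3 and the GGAA (or TTCC) letters of Mmp14 and Timp1 in capitals.
Mmp3, chr9:7445572-7445821, plus strand: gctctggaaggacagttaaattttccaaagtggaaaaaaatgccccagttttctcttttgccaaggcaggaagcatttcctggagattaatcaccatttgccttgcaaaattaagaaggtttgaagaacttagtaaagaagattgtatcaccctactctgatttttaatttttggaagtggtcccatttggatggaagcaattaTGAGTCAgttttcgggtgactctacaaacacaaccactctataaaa
Mmp14, chr14:54431348-54431597, plus strand: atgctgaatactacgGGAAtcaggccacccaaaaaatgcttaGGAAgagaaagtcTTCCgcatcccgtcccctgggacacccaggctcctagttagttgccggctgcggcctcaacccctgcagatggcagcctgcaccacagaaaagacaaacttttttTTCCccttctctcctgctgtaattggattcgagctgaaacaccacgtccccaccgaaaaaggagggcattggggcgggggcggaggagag
Timp1, chrX:20869916-20870165, plus strand: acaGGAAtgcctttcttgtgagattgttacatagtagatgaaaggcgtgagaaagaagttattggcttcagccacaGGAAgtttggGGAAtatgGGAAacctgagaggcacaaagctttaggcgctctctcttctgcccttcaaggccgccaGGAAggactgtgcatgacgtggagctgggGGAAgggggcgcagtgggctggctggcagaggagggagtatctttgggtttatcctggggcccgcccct
The AP-1 letters of Mmp3 start 46 bases before the start site.

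The table lists 17 other MMP genes, of which 8 were tested and 3 (Mmp1a, Mmp1b and Mmp20) had no count in any library. By edgeR 2 were lower (Mmp12 and Mmp13) and 1 was higher (Mmp24) at an unadjusted p under 0.05, where 13.7% of all genes were lower and 11.9% higher, and 0 passed an adjusted p of 0.05. Mmp12, macrophage elastase, was counted at 296, 34.5 and 281 CPM in controls and 43.7, 2.22 and 31.1 CPM in aPU.1KO mice. Control mouse 2 lay within the aPU.1KO range (log2 fold change -2.99, SE 1.10, edgeR adjusted p = 0.154), and without that mouse the value was -3.50 (SE 0.95, edgeR adjusted p = 0.0823). Mmp13, a collagenase of the same chromosome 9 cluster as Mmp3 and Mmp12, had 1.79, 0.525 and 1.59 CPM in controls and 0.508, 0.181 and 0.0947 CPM in aPU.1KO mice, lower in each (log2 fold change -2.35, SE 0.69, edgeR adjusted p = 0.106, DESeq2 adjusted p = 0.0295). Without control mouse 2 its edgeR adjusted p was 0.0471. Mmp28, or epilysin, had 58.7, 76.9 and 46.4 CPM in controls and 78.1, 76.8 and 79.3 CPM in aPU.1KO mice, with a log2 fold change of 0.36 (SE 0.17, edgeR adjusted p = 0.235), or 0.56 (SE 0.11, edgeR adjusted p = 0.0395) without control mouse 2. Mmp24, a membrane-bound MMP, had 0.331, 0.394 and 0.238 CPM in control mice and 0.661, 0.497 and 0.663 CPM in aPU.1KO mice, higher in each, with a log2 fold change of 0.91 (SE 0.36, edgeR adjusted p = 0.174, DESeq2 adjusted p = 0.350). Mmp13 (10, 4 and 2 counts) and Mmp24 (13, 11 and 14 counts) rest on few counts in aPU.1KO mice 1, 2 and 3. Mmp15, Mmp16, Mmp17 and Mmp23 had log2 fold changes between -0.57 and 0.68, and their groups overlapped.

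Other genes of the system were taken from lists that name the relatives, receptors and regulators of MMPs. Of 13 ADAMTS genes tested, 3 were lower and none was higher at an unadjusted p under 0.05, and of 12 ADAM genes, 5 were lower and 0 higher. Over all genes tested these shares were 13.7% and 11.9%, against which this count and those of the lists that follow are to be read. Adamts5, an aggrecanase that TIMP3 inhibits, had the highest mean CPM of the ADAMTS genes, at 732 ± 79.6 CPM (SD, n = 3) in control and 541 ± 156 CPM in aPU.1KO mice (edgeR adjusted p = 0.241). Of 18 genes tested that clear, bind or induce MMPs, 6 were lower. Among these, Lrp1, the endocytic receptor that takes up MMP and TIMP complexes, had 923 ± 101 CPM in controls and 620 ± 92.2 CPM in aPU.1KO mice and was lower in every one (log2 fold change -0.58, SE 0.15, edgeR adjusted p = 0.0892, DESeq2 adjusted p = 0.00458). Mrc2, a receptor for cleaved collagen, was at 8.32 CPM in aPU.1KO mouse 2 and between 118 and 268 CPM in the other 5 mice. Of 10 genes of the plasminogen system, which activates proMMPs, 4 were lower and 2 higher. Of 17 genes of inducers of MMP transcription, 3 were lower, and Fos, Jun and Junb overlapped between the groups, with higher means and a wider spread in the aPU.1KO mice. No gene of these lists passed an adjusted p of 0.05 by edgeR. DESeq2 called 1 ADAMTS gene, 4 ADAM genes, 4 genes that clear, bind or induce MMPs, 4 of the plasminogen system and 1 inducer as lower at an adjusted p under 0.05, and 1 of the plasminogen system as higher, against 7.48% and 3.51% of all genes.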

How the data were processed

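RNA of the adipocyte fraction was measured in 6 libraries, 3 per group. The authors deposited estimated counts per gene: reads were quantified with Salmon (option validateMappings) and transcript counts were summed to genes, while the submitters' processing notes also name FastQC and GRCm38. The Salmon version and annotation are not given in the sources used here. All values are whole numbers. Symbols and coordinates came from GENCODE M21, which matched 35031 of 35122 genes.

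The comparison used edgeR 4.0.16 under R 4.3.3 (genes kept by filterByExpr, scaled by TMM and fitted by glmQLFit and glmQLFTest, two-sided, Benjamini-Hochberg adjustment over 13925 genes). That test reports no SE, so each SE given with an edgeR log2 fold change was calculated back from the fold change and its test statistic. The authors' tool, DESeq2 (version 1.42.0 here), was an alternative, with limma-voom (limma 3.58.1), other scaling factors and filters, thinning of the deepest library, marker covariates and leaving out each mouse. In simulated data for this comparison (13925 genes), edgeR called 57 of 100 genes changed by 1 on the log2 scale and 84 of 100 changed by 2, with 6 false calls, and DESeq2 called 73 and 88 with 49 false calls. The simulated counts were drawn independently for each gene, with few genes changed and no outlying mouse. These numbers therefore need not hold for the real libraries. No library was a duplicate of another of its group (smallest chi-square over its degrees of freedom 19.0). By rule the genes named are the 10 chosen, Spi1, every other MMP tested, genes from among the 4 tested genes of highest mean CPM in each pathway list, and genes from among the 3 most like a tested gene. Named outside that rule are genes that overlap one of the 10 (Tmem198b, Chchd10, Syn1, Syn2 and Syn3), the markers Csf1r and Gsn, and 3 MMP genes with no count. Ratios to Pdgfra and Csf1r were chosen after their values were seen. The genes and lists were chosen with earlier results of these data known. The DESeq2 adjusted p is missing for genes it filtered out, and these were left so. Results for 1 gene of the lists are not reported here. Figures were drawn with matplotlib 3.10.9.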

Additional observations from a re-analysis of the deposited data

How the results depend on the processing

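No paired analysis was possible because the labels give the groups no shared replicate numbers and do not say which mice were littermates. The number of genes of the set with an adjusted p under 0.05 was 0 by edgeR and by limma-voom, 2 with no filter on low counts (Mmp14 and Timp2), 5 by DESeq2 and between 0 and 4 with one mouse left out, the 4 (Mmp2, Mmp3, Mmp14 and Timp2) coming without control mouse 2, where 6.93% of all genes were called lower. At an unadjusted p under 0.05 the 5 genes became 0 with the mean level of macrophage or of stromal progenitor markers as a covariate (3 residual degrees of freedom) and between 4 and 8 with one mouse left out. Without control mouse 2 those 8 were 7 lower and 1 higher, against 15.1% and 11.0% of all genes. The 4 genes without overlap became between 4 and 8, the 8 again without control mouse 2 (7 lower and 1 higher, against 24.1% and 24.8% of all genes). Over all genes, the 33 called became 5 with at least 10 counts in every library, 146 with no filter, 1833 by DESeq2, 19 with the deepest library thinned, 0 with either covariate and between 0 and 1193 with one mouse left out.

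Log2 fold changes turned sign with the stromal progenitor covariate for Mmp2 (0.95), Mmp11 (1.04), Mmp14 (0.095), Timp2 (0.13) and Timp4 (-0.84), and with the macrophage covariate for Mmp11 (0.41), Mmp19 (0.0039) and Timp4 (-0.25). They also turned for Mmp9 by limma-voom (0.075) and without control mouse 2, with values between -0.65 and 0.32 when one mouse was left out, and for Timp3 without control mouse 2 (0.017) or aPU.1KO mouse 1 (0.075), with values between -0.33 and 0.075. The cause of these turns was not tested. Mmp3, Mmp9 and Timp1, and of the other MMPs Mmp13 and Mmp24, rest on few counts in the shallower libraries, and a difference in them is less precise. Leaving out Gsn, an alternative chosen after seeing the data, moved the stromal progenitor marker sum of aPU.1KO mice from 108% to 46.2% of the control mean. Using the longest transcript as gene length, also added then, moved the mean share of Timp2 in aPU.1KO mice from 11.9% to 9.77% and that in control mice from 30.3% to 25.5%, and left the mean shares of Timp4 and Mmp19 within 1 SD. Adding Mmp12 to the summed MMPs, likewise chosen afterwards, moved the mean share of Mmp19 from 64.4% to 45.3% in control and from 78.0% to 70.6% in aPU.1KO mice.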
